A study of Mus musculus with 38 samples.

Results

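The 42 genes described here encode the machinery of the cell division cycle, from the G1 cyclins through the DNA replication fork to the mitotic kinases and motors. They are a list of gene symbols, drawn up with earlier results of these data known, and all 42 symbols were found among the 45706 gene identifiers of each count table. RNA was measured by polyA RNA sequencing in primary mouse embryonic fibroblasts (MEFs, cells cultured directly from embryos) of strain C57BL/6. The cells were WT or homozygous for RelA-TA-KI, a knock-in allele of RelA, the transcription factor subunit of NF-kappaB. The labels do not describe the change in the allele, and read counts per gene cannot show it. All cells, the untreated controls included, were kept overnight in medium with 0.5% bovine calf serum before stimulation, a treatment that slows entry into the cell cycle. One set of 20 libraries followed TNF at 10 ng/ml for 0.5, 1, 3 and 8 h beside untreated cells, with 2 libraries for each genotype and time. A second set of 18 libraries followed LPS at 100 ng/ml and Poly(I:C) at 20 µg/ml for the same times, with 1 library for each genotype and condition, the untreated pair shared by both agents. The study asks how RelA drives inflammatory target genes, and the genes below were chosen for their part in the cell cycle.

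The cell cycle runs on cyclin-dependent kinases (CDKs). D-type cyclins with CDK4 and E-type cyclins with CDK2 release E2F factors from the pocket proteins, and E2F then turns on genes for replication, such as the MCM helicase subunits. A second wave, driven in G2 by the MuvB complex with B-MYB and FOXM1, turns on cyclin B, Aurora and Polo kinases, checkpoint proteins and spindle motors. Fibroblasts deprived of serum tend to leave this programme. In RNA from a whole culture, fewer cycling cells and less RNA per cell cannot be told apart.

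Promoters of the mitotic members are known for CCAAT boxes and for the cell cycle homology region, and those of the replication members for E2F sites. Promoter sequences from RefSeq (GRCm38.p6) were matched for 34 of the 42 genes, and 5 motifs were searched on both strands in the 250 bases before the start. The 4 stretches below are the last 150 bases before the start, 5′ to 3′ on the gene's strand, with the motif letters in capitals. The first pair belongs to mitotic genes that moved in the results below, and the second pair to MCM helicase subunits that moved in opposite directions with LPS.
Ccnb2 (chr9:70421555-70421704, minus strand): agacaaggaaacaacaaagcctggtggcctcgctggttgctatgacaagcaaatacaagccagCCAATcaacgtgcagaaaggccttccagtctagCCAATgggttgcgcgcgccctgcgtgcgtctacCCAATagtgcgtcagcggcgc
Cdc20 (chr4:118437344-118437493, minus strand): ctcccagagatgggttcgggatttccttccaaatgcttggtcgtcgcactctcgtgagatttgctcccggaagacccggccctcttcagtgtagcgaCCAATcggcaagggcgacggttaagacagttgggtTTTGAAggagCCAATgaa
Mcm5 (chr8:75109359-75109508, plus strand): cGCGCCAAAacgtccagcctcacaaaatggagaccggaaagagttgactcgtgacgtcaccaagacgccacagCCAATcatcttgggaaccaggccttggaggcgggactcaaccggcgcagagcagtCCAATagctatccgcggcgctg
Mcm6 (chr1:128359706-128359855, minus strand): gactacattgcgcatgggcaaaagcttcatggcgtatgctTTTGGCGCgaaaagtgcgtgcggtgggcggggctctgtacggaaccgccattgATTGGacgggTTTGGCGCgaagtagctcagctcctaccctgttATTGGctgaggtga

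Among the letters searched, the Ccnb2 stretch holds the CCAAT box alone. That of Cdc20 has the motif TTTGAA between a pair of CCAAT boxes. Both MCM stretches join CCAAT, which reads ATTGG on the other strand, to an E2F motif. Its letters are TTTGGCGC in Mcm6, and Mcm5 carries the reverse complement. Over the 250 bases, CCAAT was present in 27 of the 34 matched members (79.4%), against 37.5% of all 27025 genes with a promoter in the table. It was found in 4 of 4 matched genes of G2/M control, in 4 of 4 of chromosome structure and motors, and in 7 of 8 of origin licensing and fork. The letters TTTGAA of the cell cycle homology region were present in 10 members (29.4%), against 18.3% of all genes. Ccnb2 was one of these 10, with the motif outside the stretch shown. The E2F letters GCGGGAA were present in 4 members (11.8%), against 4.4% of all genes. The second E2F form, TTTGGCGC, was present in 2 members, Mcm5 and Mcm6 (5.9%), against 0.5% of all genes. The kappa B motif, a form of the site bound by RelA, was present in Birc5 alone among the members (2.9%), against 0.4% of all genes. Each motif was counted on its own, so matches of different motifs that share letters count for both. These shares describe letters in a window and say nothing of binding. Promoters of Ccnd1, Ccnd2, Ccne2, Mcm4, Ccna2, Cdc25c, Aurkb and Kif20a were not analysed here.

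Total counts per library were 6715022 to 9590932 in the TNF set and 7021799 to 9431334 in the LPS and Poly(I:C) set. All 12 fibroblast markers examined had counts in every library, led by Col1a1. All 20 macrophage and leukocyte markers, led by Lyz2, also had counts in every library, with a summed level, in CPM (read counts scaled by library size), of 1197 to 4584 in the TNF set and 4006 to 6878 CPM in the other set. RNA of another cell type was thus present beside that of fibroblasts, and its part in the results below was not tested. Markers of other types had lower summed levels in the TNF set, 100.5 to 237.6 CPM for muscle and 35.19 to 83.08 for endothelium. Epithelial and keratinocyte markers summed to 11.9 to 101.9 CPM and neural markers to 56.35 to 101.7 CPM. The part of these was not tested either. Rela, the targeted gene, had a median of 119.3 CPM in WT and 80.8 CPM in RelA-TA-KI libraries of the TNF set. Replicates also differed in sex-linked RNA. In untreated cells of the TNF set, WT replicate 2 had 2.4 CPM of Xist and 149.52 CPM of Ddx3y, whereas WT replicate 1 had 415.04 and 0.15 CPM. In the other set the untreated WT library held both, Xist at 407.15 and Ddx3y at 66.8 CPM, and the RelA-TA-KI library had 0.8 CPM of Xist. Over all times of the TNF set, Xist was at 331.78 to 426.62 CPM in WT replicate 1 and at 2.33 to 3.84 CPM in WT replicate 2. The 2 WT replicate numbers thus mark different sources of cells, kept apart at every time. Both RelA-TA-KI replicates had Xist, at 347.79 to 541.93 CPM, and at most 0.64 CPM of Ddx3y. The labels do not say whether replicates are separate embryos or cultures, and the p-values below measure only the spread between these libraries.

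Levels between genes are compared per kilobase of exon length, as CPM per kb in untreated WT cells of the TNF set. The 3 highest members were G1 genes: Ccnd2 at 234.6, Ccnd1 at 148.8 and Cdk4 at 112.1 CPM per kb. Ribonucleotide reductase, the enzyme that makes deoxynucleotides, followed with Rrm1 at 43.71 and Rrm2 at 31.04. The MCM subunits were close together, from 9.806 for Mcm7 to 20.37 for Mcm4. Mki67, the proliferation marker Ki-67, was at 14.56, and the lowest member was E2f2 at 0.803. All 42 genes passed the filter on low counts in both sets.

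TNF first raised a small group of mitotic genes in both genotypes. Cdc20, the activator of the anaphase-promoting complex, was at 31.76 and 34.39 CPM in the 2 untreated WT libraries. It stood at 42.29 and 50.83 CPM after 0.5 h, at 46.82 and 50.43 after 1 h, and at 42.02 and 42.66 after 3 h. In RelA-TA-KI cells it went from 33.29 and 35.24 CPM to 51.9 and 47.85 at 0.5 h, 48.95 and 48.99 at 1 h, and 48.46 and 47.13 at 3 h. Both libraries at each of these times lay above both untreated libraries, in each genotype. Its log2 fold change at 0.5 h was 0.49 (SE 0.09, edgeR adjusted p = 0.014) in WT and 0.54 (SE 0.09, edgeR adjusted p = 0.0065) in RelA-TA-KI cells. Here and below, adjusted p is that of edgeR's quasi-likelihood test over all genes tested, and a gene rose or fell only where it was below 0.05.

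Unless a block is named, counts for TNF come from a fit that does not pair libraries by replicate number. With that number as a block within genotype, more members and more of all genes rose at 0.5 and 1 h, as given below. At 0.5 h of TNF without the block, 5 of the 42 genes rose in WT and none fell, where 0.91% of all 13843 genes tested rose and 0.13% fell. Beside Cdc20 these were the spindle kinase Aurka (0.62, SE 0.11), the kinetochore motor Cenpe (0.62, SE 0.09), the cytokinesis motor Kif20a (0.58, SE 0.08) and the DNA untangling enzyme Top2a (0.45, SE 0.08), as log2 fold changes. In RelA-TA-KI cells 4 rose and none fell, where 0.831% of all genes rose and 0.238% fell: Aurka (0.56, SE 0.11), Cenpe (0.56, SE 0.09), Cdc20 and Kif20a (0.49, SE 0.08). The whole set leaned the same way, with a median log2 fold change of 0.24 in WT and 0.20 in RelA-TA-KI cells, while the median of all genes was -0.01 in both. Of the 42 values, 40 were above 0 in WT and 42 in RelA-TA-KI cells. The largest value among genes not called in WT was that of Cdc25c, the phosphatase that activates CDK1, at 0.88, from 5.512 and 5.647 CPM to 10.27 and 10.27.

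At 1 h the rise in WT took in 7 genes and no gene fell, against 2.57% of all genes higher and 1.24% lower. These were Cdc25c (0.87, SE 0.23), Cdc20 (0.55, SE 0.09), the checkpoint kinase Bub1 (0.54, SE 0.12), Kif20a (0.50, SE 0.08), the checkpoint protein Mad2l1 (0.49, SE 0.12), Cenpe (0.39, SE 0.09) and Top2a (0.34, SE 0.08). In RelA-TA-KI cells 4 rose at 1 h, Cdc20, Cenpe, Aurka and Kif20a, with log2 fold changes of 0.43 to 0.52, where 2% of all genes rose and 1.28% fell. All of these genes, called without the block, belong to G2 or mitosis and none to G1, licensing or nucleotide supply. With the replicate block within genotype, 2 genes of nucleotide supply also rose in WT at 1 h. These were Rrm1 (0.19, SE 0.06, edgeR adjusted p = 0.036) and Rrm2 (0.35, SE 0.07, edgeR adjusted p = 0.0035). At 3 h only Aurka (0.38 in WT and 0.39 in RelA-TA-KI cells) and Cdc20 (0.35 and 0.48) were still above untreated cells by the test. The transcription factor gene E2f1 had fallen by 0.33 in WT and by 0.28 in RelA-TA-KI cells on the log2 scale, and Ccnd3, a D-type cyclin, had fallen by 0.31 in WT. These 2 higher and 2 lower genes in WT stood against 9.32% of all genes higher and 6.36% lower, and the 2 higher and 1 lower in RelA-TA-KI cells against 10.9% and 8.08%, so that at 3 h the members changed no more often than other genes. With libraries scaled by their totals, 5 fell and none rose in WT at 3 h (8.92% and 7.16% of all genes), and 4 fell and 1 rose in RelA-TA-KI cells (12.8% and 6.7%).

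The early counts depended on single libraries. At 0.5 h in WT the count was 2 without untreated replicate 1 or without replicate 2 at 0.5 h and 3 without untreated replicate 2, and in RelA-TA-KI cells it was 1 without untreated replicate 1 or without replicate 2 at 0.5 h. At 1 h in WT it was 2 to 4 without any 1 of the 4 libraries compared, and in RelA-TA-KI cells 1 without either untreated library or replicate 1 at 1 h. The early tests rest on the spread between the 2 libraries of a group, pooled over all groups of the TNF set (10 residual degrees of freedom). With only the groups of a contrast in the fit, fewer members were called in WT, as given at the end. Over all genes tested, replicate deviations were weakly to moderately correlated between times within a genotype. The correlations were 0.16 to 0.53 in WT and 0.16 to 0.37 in RelA-TA-KI cells, so the tendency need not hold for every gene. With the replicate number held as a block within genotype, 15 genes rose at 0.5 h in WT and 17 in RelA-TA-KI cells, where 2.67% and 8.08% of all genes did. At 1 h, 14 and 16 rose, where 6.13% and 8.63% did. With that block at 0.5 h, the log2 fold change of Rrm2 was 0.40 (SE 0.07, edgeR adjusted p = 0.0024) in WT and 0.64 (SE 0.07, edgeR adjusted p = 1e-05) in RelA-TA-KI cells. Rrm1 also rose in WT, by 0.26 (SE 0.06, edgeR adjusted p = 0.0092). At 3 h the block gave 3 higher and 6 lower genes in WT, where 14.9% of all genes were higher and 12.9% lower, and 4 higher and 5 lower in RelA-TA-KI cells, where 18.8% and 16.5% were. The macrophage markers moved the other way early on. At 0.5 h all 20 were below 0 in both genotypes, with medians of -0.31 in WT and -0.53 in RelA-TA-KI cells, and at 1 h 19 and 20 of the 20 were. Their summed level went from 1328 and 2074 CPM to 1197 and 1575 in WT, and in RelA-TA-KI cells from 1797 and 3031 CPM to 1351 and 2083 at 0.5 h. None was called without the block, and with it 5 fell in WT and 19 in RelA-TA-KI cells at 0.5 h and 3 and 15 at 1 h. Of the 12 fibroblast markers, the block called 3 lower in WT at 0.5 h, and 4 higher and 4 lower in RelA-TA-KI cells. The part of these markers in the early rise was not tested. All times are set against cells taken before stimulation, since no untreated libraries at later times were analysed here.

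**Figure D1:**
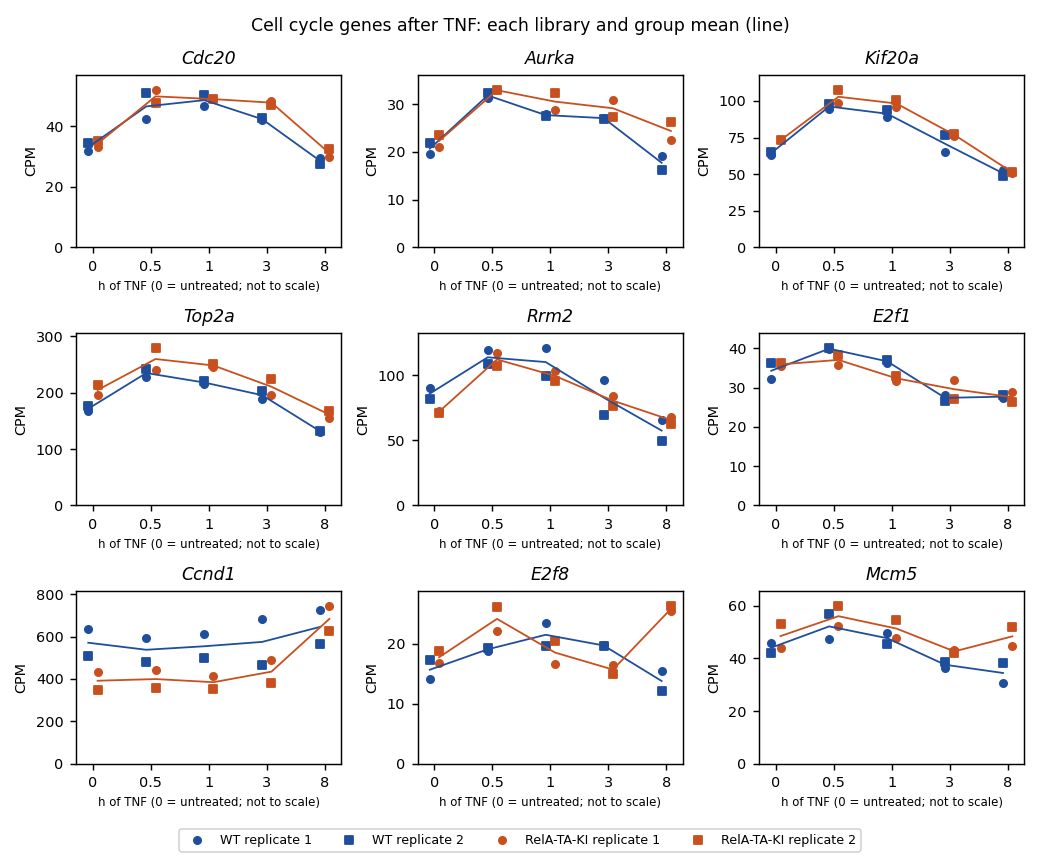
CPM of 9 genes (vertical axes, from 0) in each library of the TNF set against time of TNF (horizontal axis, not to scale), with circles for replicate 1, squares for replicate 2, blue for WT, orange for RelA-TA-KI and lines through the group means. Cdc20, Aurka, Kif20a and Top2a peak at 0.5 or 1 h and are back near or below the untreated level by 8 h, while the means of Ccnd1 and E2f8 in RelA-TA-KI cells are highest at 8 h, with E2f8 at 25.39 and 26.23 CPM.

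By 8 h of TNF the direction had turned. In WT 13 of the 42 genes fell and none rose, where 8.8% of all genes fell and 12% rose, and 40 of the 42 values were below 0 with a median of -0.28. Cdc25b, a phosphatase that activates CDK1 at the entry to mitosis, went from 24.95 and 31.87 CPM to 14.98 and 16.71, a log2 fold change of -0.85 (SE 0.15, edgeR adjusted p = 0.00077). Aurkb, the kinase of the chromosomal passenger complex, went from 20.16 and 19.97 CPM to 12.68 and 11.69 (-0.72, SE 0.13). Rrm2, the regulated subunit of ribonucleotide reductase, went from 90.36 and 81.69 CPM to 65.45 and 49.77 (-0.58, SE 0.15). For each of these 3 genes both treated libraries lay below both untreated ones. The other 10 were Ccne1 (-0.50, SE 0.12), the spindle motor Kif11 (-0.48, SE 0.14), Plk1 (-0.43, SE 0.14), Ccna2 (-0.40, SE 0.12), Cenpe, Top2a, Ccnd3, Kif20a, E2f1 and Rrm1, with the smallest fall in Rrm1 at -0.25. None of the 9 genes of origin licensing and fork was called, and their median was -0.13.

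In RelA-TA-KI cells at 8 h, 12 genes fell and 2 rose, where 20.5% of all genes fell and 21.6% rose. The members' share was thus below that of all genes in the higher direction and somewhat above it in the lower. With library totals 21 members fell and 2 rose, where 30.3% of all genes fell and 14.7% rose. The largest falls were in Cdc25c (-1.12, SE 0.23), from 9.459 and 9.969 CPM to 4.147 and 4.729, and in Kif11 (-0.71, SE 0.13), from 54.17 and 57.96 CPM to 33.18 and 35.35. Cdc25b (-0.65, SE 0.14), Ccnb2 (-0.63, SE 0.16), Aurkb (-0.61, SE 0.13), the checkpoint kinase gene Bub1b (-0.56, SE 0.14), Kif20a (-0.52, SE 0.08) and Ccna2 (-0.44, SE 0.12) followed. Ccnd3, E2f1, Mad2l1 and Top2a completed the list with values of -0.38 to -0.26. The 2 genes that rose were Ccnd1 and E2f8. Ccnd1, the D-type cyclin best known as a mitogen target, went from 433.8 and 348.4 CPM to 742.3 and 624.7 (0.80, SE 0.21, edgeR adjusted p = 0.0067). In WT it went from 635.4 and 506.1 CPM to 725.7 and 565.5, and the treated and untreated libraries overlapped. E2f8, a repressor of the E2F family, went from 16.71 and 18.78 CPM to 25.39 and 26.23 (0.54, SE 0.14, edgeR adjusted p = 0.0078), while in WT it went from 14.07 and 17.24 to 15.37 and 12.19. With the replicate block, 19 genes fell and 1 rose in WT at 8 h, where 15.5% of all genes fell and 17.3% rose. Without the block, the WT count of 13 was 4 without untreated replicate 2, 6 without replicate 1 at 8 h and 8 without replicate 2 at 8 h, and the RelA-TA-KI count of 14 was 8 without untreated replicate 2.

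**Figure D2:**
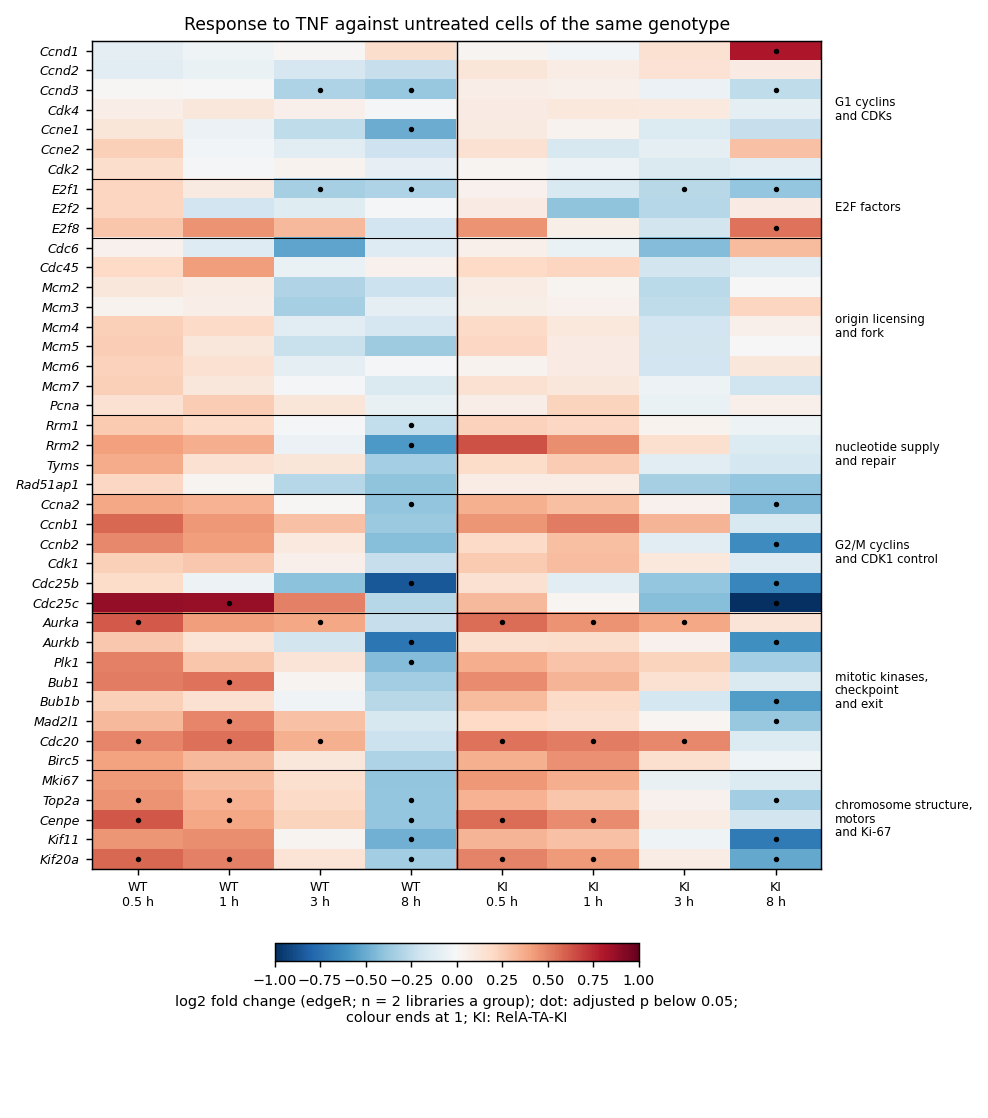
Log2 fold change against untreated cells of the same genotype for the 42 genes (rows, by role) at 4 times of TNF in WT and RelA-TA-KI (KI) cells (columns), with red for higher, blue for lower, colour ending at 1, and dots where the adjusted p was below 0.05. Dots on red lie in mitotic roles at 0.5 and 1 h, and dots on blue at 8 h, 13 in WT and 12 in RelA-TA-KI cells, lie in mitotic rows and in some G1, E2F and nucleotide rows.

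The difference between genotypes was tested directly at each time. Both RelA-TA-KI replicates and WT replicate 1 had Xist, whereas WT replicate 2 had Ddx3y instead. Genotype is thus partly confounded with the sex of the cells, and the part of sex was not tested. In untreated cells and at 0.5, 1 and 3 h, no member differed by edgeR or by DESeq2, although 9, 2, 7 and 5 members had an unadjusted p below 0.05. Of all genes, 0% were higher and 0.00722% lower in untreated RelA-TA-KI cells, 0% and 0.195% at 0.5 h, 0.0578% and 0.852% at 1 h, and 0.795% and 2.4% at 3 h. With the replicate number as a block across genotypes the call changed: 8, 1, 2 and 3 members differed at these times, where 6.92%, 1.02%, 3.93% and 8.73% of all genes did in either direction. Of the 8 in untreated cells 6 were higher and 2 lower in RelA-TA-KI cells. At 8 h, 14 members were higher in RelA-TA-KI cells and none lower, where 7.75% of all genes were higher and 8.11% lower. The median of the 42 was 0.26, and that of all genes was -0.01. The set leaned the same way before TNF. With library totals the median of the 42 was 0.16 in untreated cells and 0.09, 0.13 and 0.11 at 0.5, 1 and 3 h. Those of all genes were 0.03, 0, 0.01 and 0. At 8 h the median of the 42 on that scale was 0.19, and that of all genes was -0.08.

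The 14 genes belong mostly to G1/S and replication. They hold both E cyclins, Ccne1 (0.45, SE 0.12) and Ccne2 (0.62, SE 0.16), and the E2F target and repressor E2f8 (0.91, SE 0.15, edgeR adjusted p = 0.001). They hold 5 of the 6 MCM helicase subunits, Mcm2 (0.35), Mcm3 (0.40), Mcm4 (0.36), Mcm5 (0.49) and Mcm6 (0.46), and the ribonucleotide reductase subunit Rrm1 (0.26). The mitotic ones were Mki67 (0.59, SE 0.16), Aurka (0.46, SE 0.11), Bub1 (0.40, SE 0.13), Cenpe (0.36, SE 0.09) and Top2a (0.29, SE 0.08). Mcm5 was at 30.74 and 38.21 CPM in the WT libraries at 8 h, below the 44.86 and 52.02 CPM of RelA-TA-KI cells, without overlap. Mki67 was at 100.2 and 123 CPM in WT, again below the 161.7 and 173.8 CPM of RelA-TA-KI cells. Mcm4 was at 64.81 and 65.23 CPM in WT, beside 80.18 and 86.8 CPM in RelA-TA-KI cells. The D cyclins did not follow: Ccnd1 was 0.08, Ccnd2 -0.03 and Ccnd3 0.03 between genotypes at 8 h, none of them called.

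The count of 14 was sensitive to single libraries. It was 3 without replicate 1 of WT at 8 h and 2 without replicate 2 of RelA-TA-KI at 8 h, the range over libraries left out being 2 to 11. With only the 2 groups at 8 h in the fit it was 1, and with library totals it was 8, where 5.45% of all genes were higher. The summed macrophage markers moved with the same contrast: 1502 and 2390 CPM in the WT libraries at 8 h and 2453 and 4584 CPM in the RelA-TA-KI libraries. Of the 20 markers 2 were called higher, the median over the list was 1.04, and none of the 20 was at 0 in any of these libraries. The part of these markers in the genotype difference was not tested.

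**Figure D3:**
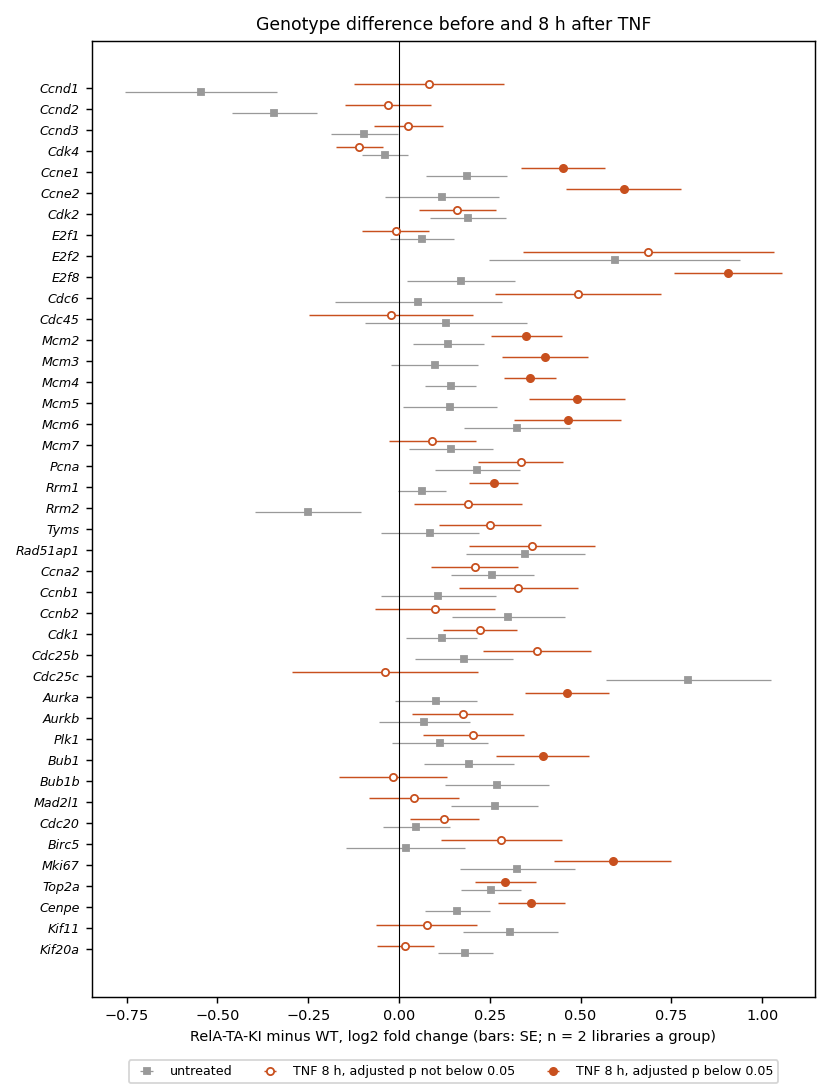
RelA-TA-KI minus WT log2 fold change (horizontal axis, bars are SE, n = 2 libraries a group) for the 42 genes in untreated cells (grey squares) and at 8 h of TNF (orange circles, filled where the adjusted p was below 0.05). The 14 filled circles lie right of 0, most of them in cyclin E, E2f8 and MCM rows, and no grey square was called.

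A response that differs between genotypes is a separate question from a level that differs. The difference of the TNF responses (RelA-TA-KI minus WT, each against its own untreated cells) called no member at 0.5, 1, 3 or 8 h by edgeR, and none by DESeq2. At an unadjusted p below 0.05 there were 0, 1, 2 and 5 members. Of all genes, 0% were higher and 0.0506% lower at 0.5 h, 0.00722% and 0.303% at 1 h, 0.202% and 0.73% at 3 h, and 3.45% and 3.42% at 8 h. With the replicate block within genotype, 5 members had a higher response in RelA-TA-KI cells at 8 h and 1 a lower one, where 11.4% of all genes were higher and 9.82% lower. The members' share was thus close to that of all genes in the higher direction and below it in the lower. The 5 were Ccnd1 (0.63, SE 0.08), E2f8 (0.75, SE 0.20), Rrm2 (0.45, SE 0.11), Ccnd2 (0.31, SE 0.06) and Mcm3 (0.31, SE 0.10), and the lower one was Cdc25c (-0.85, SE 0.29). Untreated Ccnd1 was already lower in RelA-TA-KI cells, at 433.8 and 348.4 CPM against 635.4 and 506.1 CPM in WT, a difference not called by the test. With the same block at 3 h, Ccnd2 was higher (0.32, SE 0.06) and Cdc25c lower (-0.95, SE 0.26).

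Genes of the same pathways outside the 42 were counted in the same fit. Of all genes tested, 0.91% rose at 0.5 h in WT and 0.831% in RelA-TA-KI cells. At 8 h, 8.8% fell and 12% rose in WT, and 20.5% fell and 21.6% rose in RelA-TA-KI cells. Between genotypes at 8 h, 7.75% were higher and 8.11% lower. Of 46 other mitotic genes, 10 rose at 0.5 h of TNF in WT and none fell, with a median of 0.45, and 6 rose in RelA-TA-KI cells. At 8 h, 14 of the 46 fell in WT and 23 in RelA-TA-KI cells, and 1 rose in WT. Of 45 other replication genes, 1 rose at 0.5 h in each genotype. At 8 h 11 fell and 1 rose in WT, led by the thymidine kinase gene Tk1 (-1.12, SE 0.16), while 9 fell and 2 rose in RelA-TA-KI cells. The 9 that fell were close to the share of all genes, and the 2 that rose were below it. Between genotypes at 8 h, 6 of these 45 were higher in RelA-TA-KI cells and none lower, led by the chromatin remodeller gene Hells (0.59, SE 0.15) and the licensing factor gene Cdt1 (0.52, SE 0.16). The 7 CDK inhibitor genes, the brakes of the cycle, had 4 lower and 1 higher at 8 h in each genotype. Cdkn1b, which encodes p27, fell by 0.65 in WT and by 1.56 in RelA-TA-KI cells on the log2 scale, and Cdkn1c, Cdkn2c and Cdkn2d also fell in both. Cdkn2a rose, by 0.31 in WT and by 0.26 in RelA-TA-KI cells. Of 12 other cyclin and CDK genes, the G1 kinase gene Cdk6 had the largest change at 8 h, 1.19 (SE 0.14) in WT and 1.84 (SE 0.15) in RelA-TA-KI cells. Of 17 pocket protein, other E2F and MuvB genes, 2 rose and 3 fell in WT at 8 h and 3 rose and 4 fell in RelA-TA-KI cells. The counts in RelA-TA-KI cells were close to the shares of all genes. Rbl2, a pocket protein of resting cells, was lower in both genotypes (-0.41 and -0.74).

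LPS and Poly(I:C) each have 1 library per genotype and condition, so the tests below use the mean response of the WT and RelA-TA-KI libraries, with the spread taken over conditions and genotypes and not between replicates. At 0.5 and 1 h no member was called with either agent by edgeR or DESeq2. The unadjusted p was below 0.05 for 3 and 2 members with LPS and for 6 and 14 with Poly(I:C). Of all 12752 genes tested, 0.141% were higher and 0.00784% lower after LPS at 0.5 h, 0.91% and 0.141% after LPS at 1 h, and 0.00784% and 0% after Poly(I:C) at 0.5 h, with 0% in both directions after Poly(I:C) at 1 h. The values leaned down with Poly(I:C), 39 of 42 below 0 at 0.5 h and 41 of 42 at 1 h, with medians of -0.22 and -0.32.

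LPS lowered most of the set later on. At 3 h, 17 members fell and 5 rose, where 23.3% of all genes fell and 22.8% rose. At 8 h, 31 fell and 5 rose, where 33.2% fell and 30.9% rose, and the median of the 42 was -0.79 against -0.05 for all genes. Cdc25b fell furthest, from 32.78 CPM in untreated WT cells to 6.895 at 3 h and 3.797 at 8 h, and from 31.38 to 10.03 and 5.932 CPM in RelA-TA-KI cells. Its mean log2 response at 8 h was -2.71 (SE 0.20, edgeR adjusted p = 4.6e-07). E2f2, an activator of replication genes, followed at -2.52 (SE 0.41), and Ccnb2 at -2.04 (SE 0.19), from 29.73 to 7.594 CPM in WT with a like course in RelA-TA-KI cells (29.03 to 6.733 CPM). Bub1b (-1.78), Birc5, which encodes survivin (-1.66), Kif20a (-1.55), Cdc25c (-1.52) and Bub1 (-1.46) completed the 8 largest falls. All 6 genes of G2/M control and 7 of the 8 mitotic kinase, checkpoint and exit genes fell at 8 h.

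**Figure D4:**
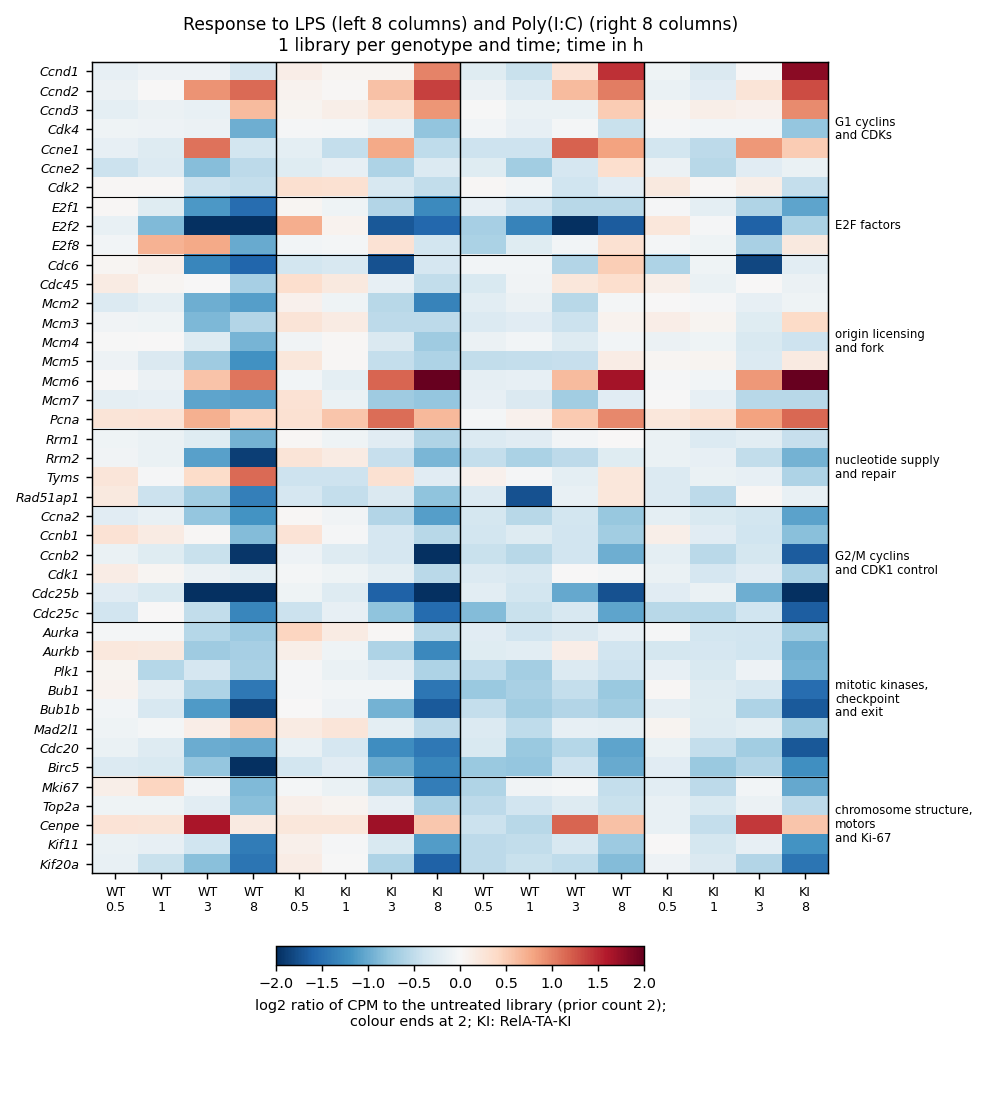
Log2 ratio of CPM to the untreated library of the same genotype for the 42 genes (rows, by role) in the 16 stimulated libraries (columns, LPS left, Poly(I:C) right, WT and RelA-TA-KI (KI), time in h), 1 library per column, colour ending at 2. Most rows turn blue at 3 and 8 h while Mcm6, Pcna, Ccnd2 and Cenpe are red there, although scaling by library totals gives -0.17 for Pcna and -0.34 for Cenpe as mean responses at 8 h of LPS.

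Some members went the other way. Mcm6 encodes a subunit of the same ring-shaped helicase as Mcm2 to Mcm5 and Mcm7, and in the WT libraries it went from 84.87 CPM to 125.8 at 3 h and 179 at 8 h of LPS. In RelA-TA-KI libraries it went from 89.13 to 200 and 417.1 CPM. With Poly(I:C) at 8 h it reached 268.9 CPM in WT and 437.7 CPM in RelA-TA-KI cells. Its mean response was 1.71 (SE 0.26, edgeR adjusted p = 0.00012) with LPS and 1.98 (SE 0.26, edgeR adjusted p = 8e-05) with Poly(I:C) at 8 h. The other 5 subunits all fell with LPS at 8 h, by 0.56 for Mcm3, 0.82 for Mcm4, 0.92 for Mcm5, 0.93 for Mcm7 and 1.22 for Mcm2 on the log2 scale. None of those 5 was called after Poly(I:C) at 8 h. No exon of Mcm6 is shared with another gene in the tables.

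Cenpe also rose, at 3 h more than at 8 h. It went from 37.27 CPM in untreated WT cells to 115.5 at 3 h and 42.11 at 8 h of LPS, and from 43.73 to 141.5 and 63.48 CPM in RelA-TA-KI cells. Its mean response was 1.66 (SE 0.11) at 3 h and 0.37 (SE 0.11) at 8 h of LPS, and 1.29 and 0.57 with Poly(I:C). Pcna, the sliding clamp of the replication fork, rose at 3 and 8 h with both agents, with mean responses of 0.91 and 0.54 for LPS and 0.67 and 1.06 for Poly(I:C). When libraries were scaled by their totals instead, the 8 h values of LPS changed sign, to -0.34 for Cenpe and -0.17 for Pcna. Ccnd2 went from 1109 to 2437 CPM in WT and from 1345 to 3469 CPM in RelA-TA-KI cells at 8 h of LPS, a mean response of 1.26 (SE 0.15). Ccnd3 rose at 8 h with both agents, by 0.75 and 0.72. Fewer members were higher with library totals, 2 at 8 h of LPS and 4 at 8 h of Poly(I:C).

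**Figure D5:**
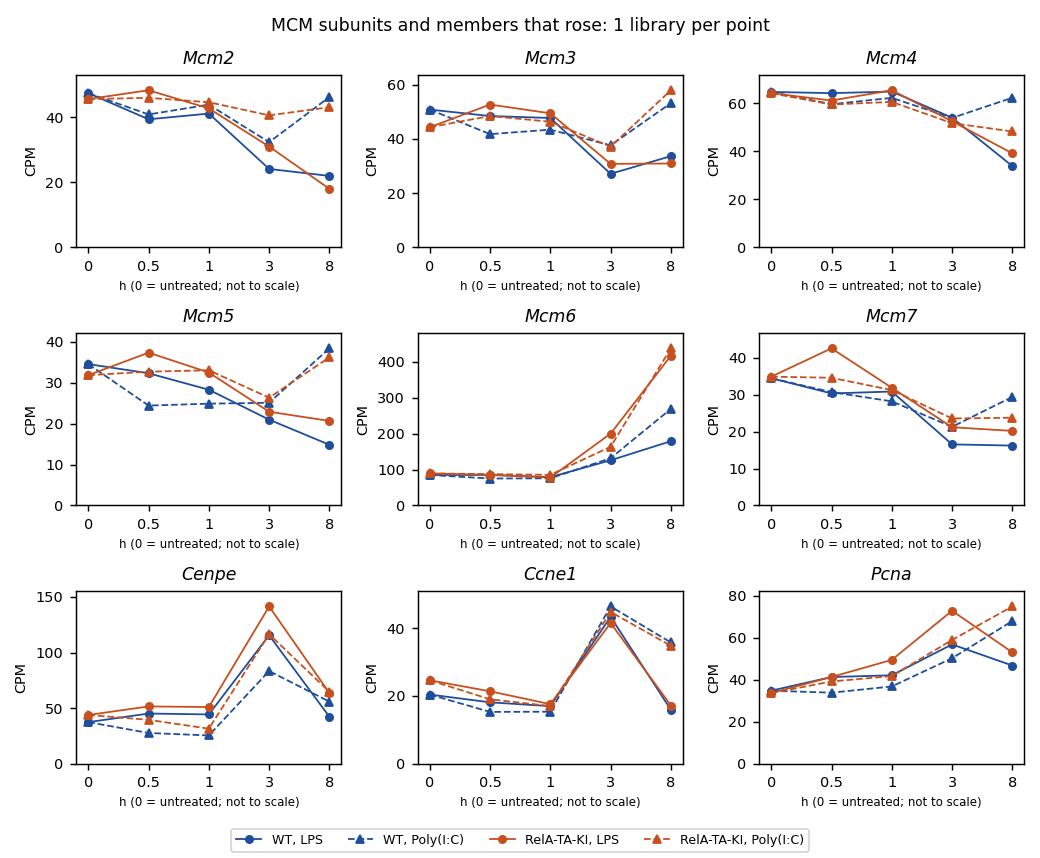
CPM (vertical axes, from 0) of the 6 MCM subunits, Cenpe, Ccne1 and Pcna against time (horizontal axis, not to scale) of LPS (solid, circles) and Poly(I:C) (dashed, triangles) in WT (blue) and RelA-TA-KI (orange) cells, 1 library per point. Mcm6 climbs to between 179 and 437.7 CPM at 8 h while the other subunits fall with LPS, and Cenpe and Ccne1 peak at 3 h.

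In the mean of both genotypes, fewer members were called with Poly(I:C) than with LPS at 3 and 8 h. The single-library counts at 8 h, given further below, were also smaller with Poly(I:C) in WT. In RelA-TA-KI cells they were similar with both agents. At 3 h, 7 members fell and 3 rose, where 7.87% of all genes fell and 11% rose, and at 8 h, 18 fell and 7 rose, where 26.1% fell and 25.2% rose, with a median of -0.39. The falls at 8 h were again led by Cdc25b (-1.88), Cdc25c (-1.43) and Cdc20 (-1.37), and 5 of the 6 G2/M control genes fell. The genes of origin licensing and fork had none that fell at 8 h, and 2 that rose. The 7 that rose were Mcm6, Ccnd1 (1.64, SE 0.27), Ccnd2 (1.16, SE 0.15), Pcna, Ccnd3, Ccne1 (0.66, SE 0.12) and Cenpe. Ccnd1 reached 786.5 CPM in WT from 284.9 and 853.4 CPM in RelA-TA-KI cells from 242.7. These counts and the levels of several genes depend on the scaling. Library totals took the median of all genes from -0.02 to -0.50 and from -0.05 to -0.76 at 3 and 8 h of LPS, and to -0.26 and -0.53 at 3 and 8 h of Poly(I:C), so the changes above are relative to the bulk of genes. With totals, 32 members fell and 3 rose at 3 h of LPS, where 55.7% of all genes fell and 10.9% rose, and 35 fell and 2 rose at 8 h, where 65.6% fell and 13.4% rose. For Poly(I:C), 17 fell and 3 rose at 3 h, where 19.5% of all genes fell and 7.62% rose, and 27 fell and 4 rose at 8 h, where 56.6% fell and 12.4% rose. Much of the fall on this scale was thus shared with other genes. The 10 members called at 3 h of Poly(I:C) were 16 without the pair of libraries at 8 h of Poly(I:C).

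The difference between the agents was then tested, after each response had been seen. At 8 h, 11 members were higher with Poly(I:C) than with LPS and none lower, where 6.74% of all genes were higher and 6.39% lower. These were Ccnd1 (1.22, SE 0.27), Ccne1 (1.10, SE 0.13), Mcm2 (1.16, SE 0.15), Mcm3 (0.78), Mcm4 (0.59), Mcm5 (1.08), Mcm7 (0.56), Pcna (0.52), Rrm1 (0.54), Ccnb2 (0.74) and Cdc25b (0.83). They include 6 of the 9 genes of origin licensing and fork. With library totals 19 members were higher and none lower, where 14.4% of all genes were higher. Of 45 other replication genes 15 were higher and none lower. At 3 h only Cdc25b was higher (0.92, SE 0.19), where 4.3% of all genes were higher and 5.36% lower. Ccne1 moved in opposite directions at 8 h: in WT it went from 20.39 CPM to 15.88 with LPS and to 35.78 with Poly(I:C), and in RelA-TA-KI cells from 24.61 to 17.15 and to 34.81. At 3 h it had been high with both agents, at 43.36 CPM with LPS and 46.44 CPM with Poly(I:C) in WT, and its mean responses of 0.92 and 1.03 were both called.

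Over all 9 conditions of the LPS and Poly(I:C) set, 8 members were higher in RelA-TA-KI than in WT cells and none lower, where 7.66% of all genes were higher and 8.21% lower. With library totals 3 members were higher, where 6.57% of all genes were. The differences were small, from 0.15 for Top2a and 0.17 for Pcna and Ccnd3 to 0.29 for Ccnd2, 0.34 for Plk1 and Cenpe, 0.35 for Ccne2 and 0.36 (SE 0.07) for Rrm1. The count was 4 to 14 when 1 condition was left out: 4 without Poly(I:C) at 1 h or 3 h, 5 without LPS at 1 h, LPS at 3 h or Poly(I:C) at 0.5 h, and 14 without Poly(I:C) at 8 h. Rrm1 was at 113.8 CPM in untreated WT and 146.4 CPM in untreated RelA-TA-KI cells, and at 59.2 and 96.19 CPM at 8 h of LPS. Genotype here is 1 culture against another, since each set of 9 libraries carries 1 genotype.

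Values within a genotype rest on single libraries and have no test. At 8 h of LPS, 18 members were at least 2-fold lower and 3 at least 2-fold higher in WT, where 16.1% and 17.8% of the genes with at least 5 CPM in one of the libraries were. In RelA-TA-KI cells 14 were lower and 2 higher, where 15% and 17.6% of all such genes were. At 8 h of Poly(I:C), 5 were lower and 3 higher in WT (6.13% and 10.9% of all such genes) and 12 lower and 4 higher in RelA-TA-KI cells (12.6% and 15.9%). Thresholds of 1 on the log2 scale and 5 CPM define these counts.

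Among the pathway genes outside the 42, 40 of 45 other mitotic genes fell with LPS at 8 h and 2 rose, with a median of -1.14, and 33 fell and 2 rose with Poly(I:C), with a median of -0.90. Of 45 other replication genes, 29 fell and 4 rose with LPS at 8 h, where 33.2% of all genes fell and 30.9% rose. With Poly(I:C) 11 of the 45 fell and 9 rose, close to the 26.1% and 25.2% of all genes. Cdkn1a, which encodes the CDK inhibitor p21, rose with LPS by 1.64 (SE 0.17) at 3 h and by 1.11 at 8 h, and by 1.20 with Poly(I:C) at 8 h. Cdkn1b fell by 1.35 at 3 h of LPS and by 1.21 at 8 h of Poly(I:C), and Cdkn2c, a CDK4 inhibitor, fell by 1.89 at 8 h of LPS.

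Exons of some members overlap genes on the other strand, and the counting setting for strand is not given in the sources used here, so their counts are uncertain to that extent. The longest overlaps are 1259 bases of Kif20a with Cdc23, 818 of Ccnd1 with LTO1, 609 of Ccne2 with Ints8, 604 of Cdk4 with Tspan31 and 510 of Ccna2 with Exosc9. Cdc20 shares 53 bases with Elovl1. Mcm2, Mcm3, Mcm4, Mcm5 and Cenpe share none.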

How the data were processed

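The members and the pathway and marker lists were chosen with earlier results of these data known. The deposited values are whole-number counts per gene with exon lengths in bases (the Length column, unit other) in 2 tables. The submitters' processing notes name cutadapt 1.9.1, STAR, featureCounts 1.4.6, DESeq2 and mm10, without their settings. Gene symbols were matched for 45143 of 45706 identifiers, and 0 per-sample columns were left unused. Counts were normalized by TMM and tested with edgeR 4.0.16 (R 4.3.3) by the quasi-likelihood F test, after a filter on low counts, with Benjamini-Hochberg adjustment over all genes and a threshold of 0.05. The TNF fit had 1 mean per group (10 residual degrees of freedom, biological coefficient of variation 10.2%), and the LPS and Poly(I:C) fit had genotype and condition (8 degrees of freedom, 12.7%). CPM use TMM-scaled library sizes, except Xist, Ddx3y and Rela, which use library totals. Single-library log2 ratios used a prior count of 2. The edgeR scripts were tested on simulated data.

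Replicate numbers were checked for pairing by the correlation of deviations from group means. It was 0.16 to 0.53 within WT and 0.16 to 0.37 within RelA-TA-KI (10 pairs each). The number was therefore used as a block within genotype in a further fit, given beside the main counts, which have no block. Between genotypes it was 0.01 to 0.34 (25 pairs), and 0.16 to 0.34 in the 5 pairs at the same time. Since not every value exceeded 0.1 and the labels do not tie the numbers across genotypes, pairing there is uncertain, and that block was an alternative only. Named members were, by rule, up to 8 per direction with the largest called change and a mean of at least 20 counts, plus Ccnd1, Ccnd2, Ccnd3, Ccne1, Mcm5, Ccnb1 and Mki67 at 3 and 8 h, and up to 3 per direction from each further list with all CDK inhibitors. Other members named in the text were chosen after their values were seen. Alternatives were DESeq2 1.42.0, no low-count filter, RLE factors, only the groups of a contrast, replicate blocks and leaving libraries out. Library totals in the tests, the difference between Poly(I:C) and LPS and a longer promoter window were added after the data had been seen.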

Additional observations from a re-analysis of the deposited data

Results flagged for a closer look

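The genotypes differed in their TNF response at 8 h for 3 genes of the further cell cycle lists, by the test of that difference in edgeR. These lists hold 45 replication, 46 mitotic, 7 CDK inhibitor, 17 pocket protein, E2F and MuvB, and 12 cyclin and CDK genes. Of all genes, 3.45% had a higher and 3.42% a lower response in RelA-TA-KI cells, so the lists differed less often than other genes. Orc2, a subunit of the origin recognition complex, had a response 0.432 higher in RelA-TA-KI than in WT cells on the log2 scale (SE 0.116, adjusted p = 0.039), with responses of 0.692 and 0.26. Ccng2, an unusual cyclin of resting cells, had a response of -1.244 in RelA-TA-KI and -0.433 in WT cells, a difference of -0.811 (SE 0.164, adjusted p = 0.01). Cdkn1b had a difference of -0.913 (SE 0.249, adjusted p = 0.042). Its libraries went from 62.22 and 73.01 CPM to 38.68 and 47.63 in WT and from 80.71 and 92.15 CPM to 28.02 and 30.4 in RelA-TA-KI cells.

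Ccne1 differed between the agents at 8 h, with mean log2 responses of -0.443 to LPS and 0.655 to Poly(I:C), a difference of 1.097 (SE 0.127, edgeR adjusted p = 0.00075). For 2 members the genotypes moved in opposite directions at 8 h of LPS with log2 ratios at least 1 apart, with 1 library each and the difference not tested. Ccnd1 went from 284.9 to 224.5 CPM in WT and from 242.7 to 482.9 CPM in RelA-TA-KI cells, a difference of 1.33 between the log2 ratios. Tyms, which encodes thymidylate synthase, went from 11.41 to 25.37 CPM in WT and from 14.02 to 12.02 CPM in RelA-TA-KI cells, a difference of -1.36. Mad2l1 moved in opposite directions too, with log2 ratios of 0.47 in WT and -0.52 in RelA-TA-KI cells, less than 1 apart.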

How the results depend on the processing

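Counts of members called moved with the setting as follows, given as main count then alternative. With DESeq2, the TNF response at 3 h went from 4 to 0 (WT) or 3 to 1 (RelA-TA-KI), and Poly(I:C) minus LPS at 3 h from 1 to 2, as it did with RLE factors, which also took the difference of TNF responses at 8 h from 0 to 1. Without the low-count filter the WT responses at 0.5 and 1 h went to 13 and 12, those of RelA-TA-KI at 0.5, 1 and 3 h to 10, 7 and 1, the genotype differences in untreated cells and at 0.5, 1 and 3 h to 4, 2, 2 and 1, and the difference of responses at 8 h to 3. With library totals instead of TMM, the WT response at 1 h went to 4, those of RelA-TA-KI at 3 and 8 h to 5 and 23, the genotype difference at 8 h to 8 and that over 9 conditions to 3, LPS and Poly(I:C) at 3 h to 35 and 20, and Poly(I:C) minus LPS at 3 and 8 h to 4 and 19. With totals the single-library counts went from 8 to 19 and 21 to 33 (WT, LPS at 3 and 8 h), 4 to 2 and 8 to 14 (WT, Poly(I:C) at 3 and 8 h), 6 to 13 and 16 to 34 (RelA-TA-KI, LPS at 3 and 8 h), 16 to 28 (RelA-TA-KI, Poly(I:C) at 8 h), and 0 to 1 and 0 to 3 (RelA-TA-KI minus WT, Poly(I:C) at 1 and 8 h). Totals also reversed Pcna and Cenpe at 8 h of LPS, to -0.17 and -0.34.

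With only the groups of a contrast in the fit, which leaves fewer samples to estimate the spread, WT responses went to 0, 1, 0 and 3 and the genotype difference at 8 h to 1. With the common replicate number as a replicate block, WT responses at 0.5, 1, 3 and 8 h went to 16, 14, 9 and 20, RelA-TA-KI responses at 0.5, 1 and 3 h to 16, 15 and 8, genotype differences in untreated cells and at 0.5, 1 and 3 h to 8, 1, 2 and 3, and the differences of responses at 3 and 8 h to 2 and 6. With the replicate block within genotype, the WT responses were 15, 14, 9 and 20, those of RelA-TA-KI at 0.5, 1 and 3 h 17, 16 and 9, and the differences of responses at 3 and 8 h 2 and 6, and the block moved no other count by over 1.5 times.

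Leaving out 1 library gave 2 to 5, 2 to 4, 0 to 2 and 4 to 12 for the WT responses, 1 to 3, 1 to 3, 1 to 2 and 8 to 14 for RelA-TA-KI, 2 to 11 for the genotype difference at 8 h and 0 to 1 for the difference of responses at 8 h. The WT response at 8 h had 4 without untreated replicate 2 and 6 and 8 without replicates 1 and 2 at 8 h, and that of RelA-TA-KI had 8 without untreated replicate 2. Leaving out 1 condition pair or library gave 4 to 14 for genotype over 9 conditions, 7 to 16 for Poly(I:C) at 3 h and 1 to 5 for Poly(I:C) minus LPS at 3 h. Without WT replicate 2 at all times the WT responses were 1, 1, 0 and 2 and the genotype difference at 8 h 7. Without RelA-TA-KI replicate 2 they were 3, 3 and 1 for WT at 0.5, 1 and 3 h, 0, 0, 0 and 2 for RelA-TA-KI, and 2 for the genotype difference. For other changes of count the cause was not tested. Of the alternative values of named genes, 2183 kept direction and side of the threshold, 290 lost the call, 40 gained one and 2 reversed. With 2 libraries a group, or 1 for LPS and Poly(I:C), changes of low genes within the spread between libraries were not detectable.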
